A study of Mus musculus with 39 samples.

Results

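Hox genes encode the homeodomain transcription factors that give a cell its place along the head to tail axis. The array held all 39 genes of the 4 mouse Hox clusters, 11 of Hoxa, 10 of Hoxb, 9 of Hoxc and 9 of Hoxd, among 29411 gene names. They were taken by name, as every probe that was not a control and whose name was Hox, a cluster letter and a number, and where a gene had several probes (12 of 39 genes) the brightest over all arrays stood for it. Within a cluster the genes lie in the order in which they are used along the body, so that genes of low number (paralog groups) mark the front and those of high number the rear. Adult fat depots keep part of this pattern, and the Hox genes that a fat pad expresses differ between its subcutaneous and visceral sites.

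The tissue was epididymal adipose, a visceral fat pad of male mice, from C57BL/6J animals weaned at 3 to 4 weeks. Diets were the low fat control (LFC, 10% of calories from fat), the high fat diet with raised sucrose (HFC, 60% of calories from fat), and the diet of HFC supplemented with the plant formulation KAL-1 at 5, 20 or 75 µg (HF5, HF20 and HF75). LFC had 11 arrays (days 1, 6, 10 and 14, and weeks 0, 3, 6, 9, 12, 15 and 18). HFC had 10 (the same without day 1), and each KAL-1 dose had 6 (weeks 3 to 18). A paper on the liver arrays of the same experiment counts weeks from day 14, so that day 14 and week 0 are the same time. Both labels are kept here as separate time points, also among the 10 that HFC and LFC share. Each diet was given to 30 mice, and the files analysed here hold 1 array per diet and time point, although the study's description speaks of biological replicates and some array titles carry an R that the labels leave undefined. Whether 1 mouse or a pool gave the RNA of an array is not stated, time points therefore stand in for replicates of a diet, and every p-value below measures only the spread between these arrays. All 10 adipocyte markers (such as Adipoq and Plin1), which are shared by all fat depots, were well above background on all 39 arrays.

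The 4 arrays labelled LFC, HFC, HF5 and HF75 of week 6 went against their label in most genes that tell depots apart. Such genes had been used to single these arrays out, so their values there are a description only. Wt1, Tcf21 and Upk3b, genes of visceral fat, were lower there than on every other array with a value. Tbx15, a gene of subcutaneous fat, was higher than on every other array but LFC week 3, which exceeded HF5 of the 4. The subcutaneous gene En1 was not well above background on the 4, and the visceral gene Nr2f1 overlapped with the other arrays. Whether these 4 arrays hold epididymal fat was not tested, so that each week 6 value below is that of an array as labelled. Without week 6, 0 Hox genes passed in every comparison of diets and of time below.

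All values are log2 of the processed signal minus the 75th percentile of the same array, so that 0 is the signal at that percentile and a difference of 1 is a factor of 2. A probe's level says nothing against another probe's level, so that differences are given within a gene. The sums of marker lists below are the exception, and the brightest probes of a list weigh most in them. LFC week 3 and HFC week 12 stood apart from the other arrays. LFC week 3 had 97.1% of spots well above background and 16431 spots marked as outliers, and HFC week 12 had 94.5% and 10531, against 53.7% to 79.6% and 21 to 387 on the other 37 arrays. Outlier marks left 17 of the 39 Hox genes without a value on LFC week 3 and 12 on HFC week 12, and at most 1 on any other array. Results are given with and without these 2 arrays.

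The 5' ends of Hoxa5 and Hoxa10, the genes called in the week 6 comparison below, are shown to let their sequence be set beside their values, and that of Hoxc4, which passed there only without LFC week 3 and HFC week 12, as a further gene with a motif match. They are the RefSeq stretches (build GRCm38.p6, read on the gene's strand) from 250 bases before to 50 after the start, in lower case, with AGGTCA (a motif bound by retinoic acid receptors and other nuclear receptors) and TATAAA (the TATA box) on either strand in capitals.
Hoxa5 (chr6:52204538-52204837, minus strand): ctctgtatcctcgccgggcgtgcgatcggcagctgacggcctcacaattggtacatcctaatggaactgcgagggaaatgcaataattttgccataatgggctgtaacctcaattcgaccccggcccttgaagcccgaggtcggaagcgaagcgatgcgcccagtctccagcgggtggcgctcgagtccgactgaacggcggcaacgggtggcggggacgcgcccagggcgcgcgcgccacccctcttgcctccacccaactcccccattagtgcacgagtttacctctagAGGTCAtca
Hoxa10, start at the lower coordinate (chr6:52234890-52235189, minus strand): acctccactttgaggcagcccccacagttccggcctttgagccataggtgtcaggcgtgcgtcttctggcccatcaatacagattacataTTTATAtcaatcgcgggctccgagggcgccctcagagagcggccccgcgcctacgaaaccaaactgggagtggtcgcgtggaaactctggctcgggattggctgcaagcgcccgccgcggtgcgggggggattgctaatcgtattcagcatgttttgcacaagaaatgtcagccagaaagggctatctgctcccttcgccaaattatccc
Hoxa10, start at the higher coordinate (chr6:52240805-52241104, minus strand): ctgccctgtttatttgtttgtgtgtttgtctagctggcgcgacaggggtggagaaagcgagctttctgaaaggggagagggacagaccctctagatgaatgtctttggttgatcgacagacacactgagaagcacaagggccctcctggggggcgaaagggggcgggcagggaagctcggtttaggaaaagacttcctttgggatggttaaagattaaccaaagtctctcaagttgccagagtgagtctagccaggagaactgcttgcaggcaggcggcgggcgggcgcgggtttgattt
Hoxc4 (chr15:103034145-103034444, plus strand): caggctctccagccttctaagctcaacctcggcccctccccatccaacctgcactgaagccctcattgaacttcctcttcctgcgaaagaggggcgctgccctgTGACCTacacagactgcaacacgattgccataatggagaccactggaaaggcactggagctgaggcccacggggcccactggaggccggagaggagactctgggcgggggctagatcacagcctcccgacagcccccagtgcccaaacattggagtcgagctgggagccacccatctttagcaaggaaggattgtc
AGGTCA, read on either strand as AGGTCA or TGACCT, was in 7 of 24 Hox promoters (29.2%, of 22 Hox genes that had one) and in 16.3% of all 32851 promoters. TATAAA, or TTTATA on the other strand, was in 4 of 24 Hox promoters (16.7%) and in 13.6% of all. Hoxa5 had AGGTCA at base 42 after its start, Hoxc4 at base -146 and Hoxa10 neither, while one of the Hoxa10 promoters had TATAAA on the other strand at base -160. Hoxa7 and Hoxa9, which also passed only without those arrays, had neither motif. Hoxc10, which likewise passed only without them, was not among the 22 Hox genes that had a promoter. The Hox promoters were richer in CG, with a median of 14.5 CG pairs against 7 over all promoters, and Hoxa5 had 29.

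Most of the anterior and middle Hox genes were measured in this fat pad and most of the posterior ones were not. Of 39 genes, 26 were well above background on 20 or more of the 39 arrays and are called detected here, among them Hoxa2 to Hoxa7 and Hoxa9, Hoxb2 to Hoxb9, Hoxc4, Hoxc5, Hoxc6, Hoxc8, Hoxc9 and Hoxc10, and Hoxd4, Hoxd8, Hoxd9 and Hoxd10. Of these, 13 were well above background on all 39 arrays. The other 13 genes were Hoxa10 (17 arrays), Hoxa11 (10), Hoxa13 (4), Hoxb1 (0), Hoxb13 (3), Hoxc11 (4), Hoxc12 (3), Hoxc13 (3), Hoxd1 (8), Hoxd3 (18), Hoxd11 (2), Hoxd12 (8) and Hoxd13 (0). By place in the cluster, 24 of 27 genes of paralog groups 1 to 9 were detected and 2 of 12 of groups 10 to 13, which were Hoxc10 and Hoxd10. Hoxd11 was well above background only on LFC week 3 and HFC week 12. Without those 2 arrays Hoxc12 was well above background on 2 and Hoxc13 on 1. Hoxc11 was so only on HFC week 12 and on LFC, HF5 and HF75 of week 6. A second Hoxd13 probe was well above background on 3 arrays. No Hox probe was saturated on any array.

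**Figure D1:**
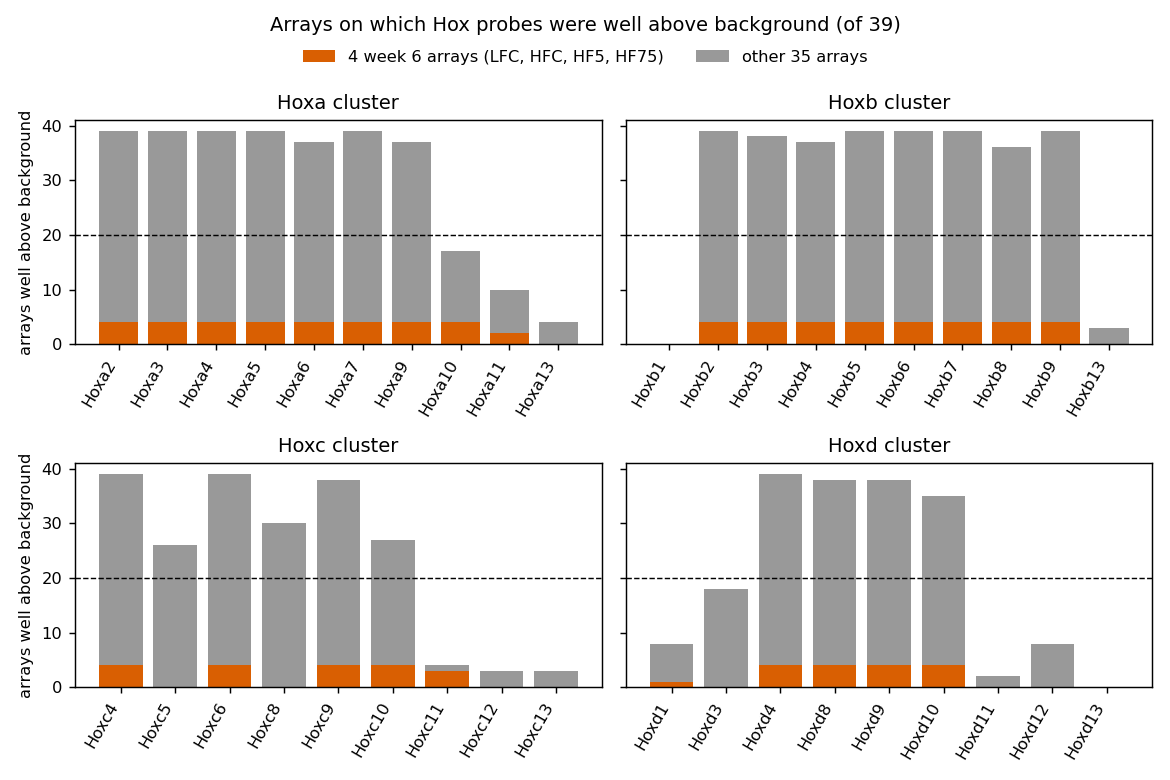
Number of the 39 arrays (vertical axis) on which the probe of a Hox gene (horizontal axis, 1 panel per cluster, 1 gene not drawn) was well above background, with LFC, HFC, HF5 and HF75 of week 6 in orange and the other 35 arrays in grey. The dashed line is 20 arrays, and Hoxb1 and Hoxd13 are at 0. A second Hoxd13 probe, not drawn, was well above background on 3 arrays.

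Among the 33 arrays other than LFC, HFC, HF5 and HF75 of week 6, LFC week 3 and HFC week 12, the SD of a detected Hox gene ran from 0.36 (Hoxb5) to 1.55 (Hoxb8), with a median of 0.74. This is the spread against which the differences below are read.

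Hoxa10 was higher and Hoxa5 lower at week 6, the one week set against the rest here, since earlier results of these data had singled out arrays of it. Those arrays (LFC, HFC, HF5 and HF75) are part of the group tested. The week 6 p-values here and below do not allow for that choice, so that calls at week 6 are descriptive. Against the other later weeks (5 arrays against 25, limma with diet in the fit), Hoxa10 rose and Hoxa5 fell. These 2 of 29 Hox genes tested passed the threshold (Benjamini-Hochberg adjusted p under 0.05), and of all 31450 probes tested 1.41% did. The median difference over the 29 Hox genes was -0.14, beside -0.02 over all probes. Of the 29, 8 had an unadjusted p under 0.05, where 13.6% of all probes did. With scan date as a random block no Hox gene passed. Since the arrays of week 6 were scanned on 2 dates of their own, and each other later week on dates of its own as well, week and scan date cannot be told apart.

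Hoxa10, a posterior gene of the Hoxa cluster on chromosome 6, was -3.23 in LFC, -2.51 in HFC, -2.99 in HF5, -4.69 in HF20 and -3.15 in HF75 at week 6. All 5 were well above background, as were 6 of the 25 arrays of other later weeks. Its mean at the other later weeks was -6.85 ± 1.48 (SD, n = 25). On the early arrays of LFC and HFC it was well above background on 6 of 9, with a mean of -5.46 ± 1.58. Its week 6 difference was 3.54 (SE 0.69, adjusted p = 0.00618) and it was higher in 5 of 5 diets. The other 19 of the 25 were not well above background, and with such arrays at no less than their lowest measurable signal the difference was at least 8.76-fold. The second Hoxa10 probe gave 3.91 (adjusted p = 9.86e-05). With normexp background correction the difference was 0.27 (adjusted p = 0.817). Normexp, here and below, added an offset of 50 to every signal before the log, which weighs most on dim probes. With scan date as a random block the Hoxa10 difference was 3.35 (adjusted p = 0.161), and without HF75 of week 6 it was 3.41 (adjusted p = 0.0605).

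Hoxa5, a middle gene of the same cluster, was -3.64 in LFC, -2.96 in HFC, -1.67 in HF5, -3.48 in HF20 and -2.62 in HF75 at week 6, against -1.30 ± 0.69 (SD, n = 25) at the other later weeks. Its difference was -1.58 (SE 0.34, adjusted p = 0.0138), and it was lower in 5 of 5 diets, in HF5 by 0.09 from the median of its other weeks. The call was lost with normexp (-1.22, adjusted p = 0.123), with median scaling (-1.53, adjusted p = 0.0849), with scan date as a random block (-1.61, adjusted p = 0.122), and without LFC (adjusted p = 0.131), HFC (adjusted p = 0.0576) or HF75 (adjusted p = 0.106) of week 6.

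**Figure D2:**
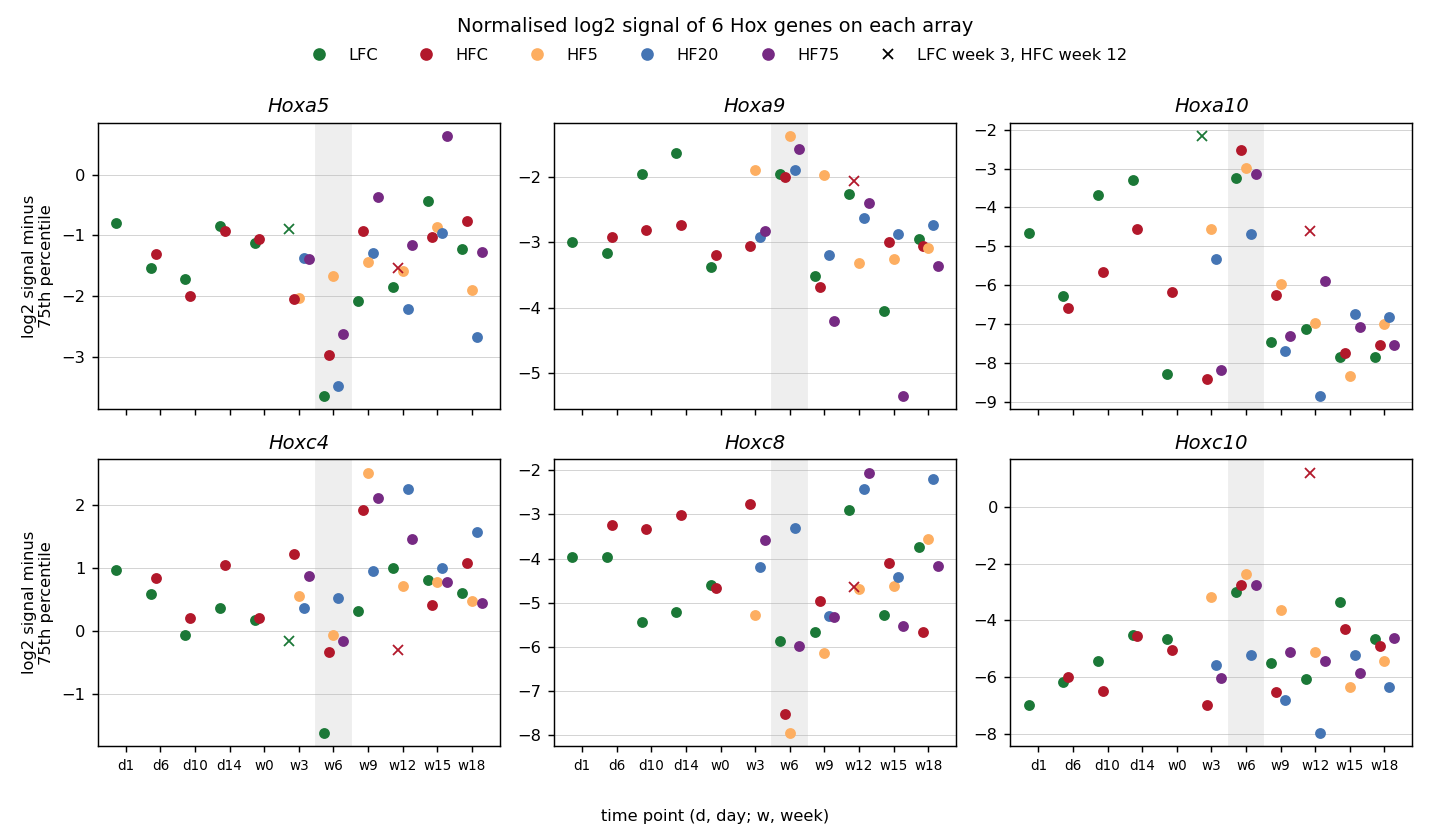
Normalised log2 signal (vertical axis) of 6 Hox genes on every array by time point (horizontal axis, d for day and w for week), coloured by diet, with week 6 shaded and LFC week 3 and HFC week 12 as crosses. Hoxa10 sits between -2.51 and -4.69 at week 6, and Hoxc8 of HF20 at week 6 (-3.30) lies well above the other 4 arrays of that week.

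Without LFC week 3 and HFC week 12, 6 Hox genes passed, and of all probes 2.9% did. Hoxa10 (3.86, SE 0.49, adjusted p = 9.73e-05), Hoxc10 (2.20, SE 0.49, adjusted p = 0.0159) and Hoxa9 (1.37, SE 0.34, adjusted p = 0.0280) were higher. Hoxa5 (-1.56, SE 0.34, adjusted p = 0.0135), Hoxc4 (-1.37, SE 0.32, adjusted p = 0.0211) and Hoxa7 (-1.01, SE 0.25, adjusted p = 0.0266) were lower. With the 2 arrays in, Hoxc4 (-1.28, adjusted p = 0.0518), Hoxa9 (1.32, adjusted p = 0.0539), Hoxa7 (-0.95, adjusted p = 0.0640) and Hoxc10 (1.92, adjusted p = 0.245) missed the threshold. With scan date as a random block and all arrays in, the adjusted p was 0.693 for Hoxc10, 0.304 for Hoxa9, 0.363 for Hoxc4 and 0.385 for Hoxa7. With normexp the differences were 0.10 for Hoxc10, 0.43 for Hoxa9, -1.06 for Hoxc4 and -0.69 for Hoxa7, none past the threshold. The 3 higher genes are of paralog groups 9 and 10 and the 3 lower ones of groups 4 to 7. Hoxc4 has a second probe, and that probe moved less (-0.56, adjusted p = 0.558).

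LFC, HFC, HF5 and HF75 of week 6 had been singled out from other genes in earlier work on these data, so their values are described with no test. Against the other 35 arrays, none of the 26 detected Hox genes had its 4 arrays wholly above or wholly below all others, where 0.25% of all probes detected on at least 20 arrays did. Without LFC week 3 and HFC week 12, 1 of 26 did (Hoxc10, above), where 0.357% of all probes did. Hoxa10, which was not among the 26, also lay wholly above the 33 arrays left, while LFC week 3 (-2.15) was higher than all 4. The margin was small, from -3.28 in LFC of day 14 to -3.23 in LFC of week 6. Of the 26 detected genes, 7 differed by more than 1 from the median of the 33 (26.9%), where 11.6% of all detected probes did. The 18 detected genes of the Hoxa, Hoxc and Hoxd clusters were also set out by place. The 13 of paralog groups 1 to 8 had a median difference of -0.35 (10 lower, 3 higher). The 5 of groups 9 and 10 had one of 1.25 (5 higher), though Hoxc9 (0.15) and Hoxd9 (0.22) moved by less than the median Hox SD of 0.74. This split by place was not tested. The 8 detected Hoxb genes lay between -0.48 and 0.44.

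**Figure D3:**
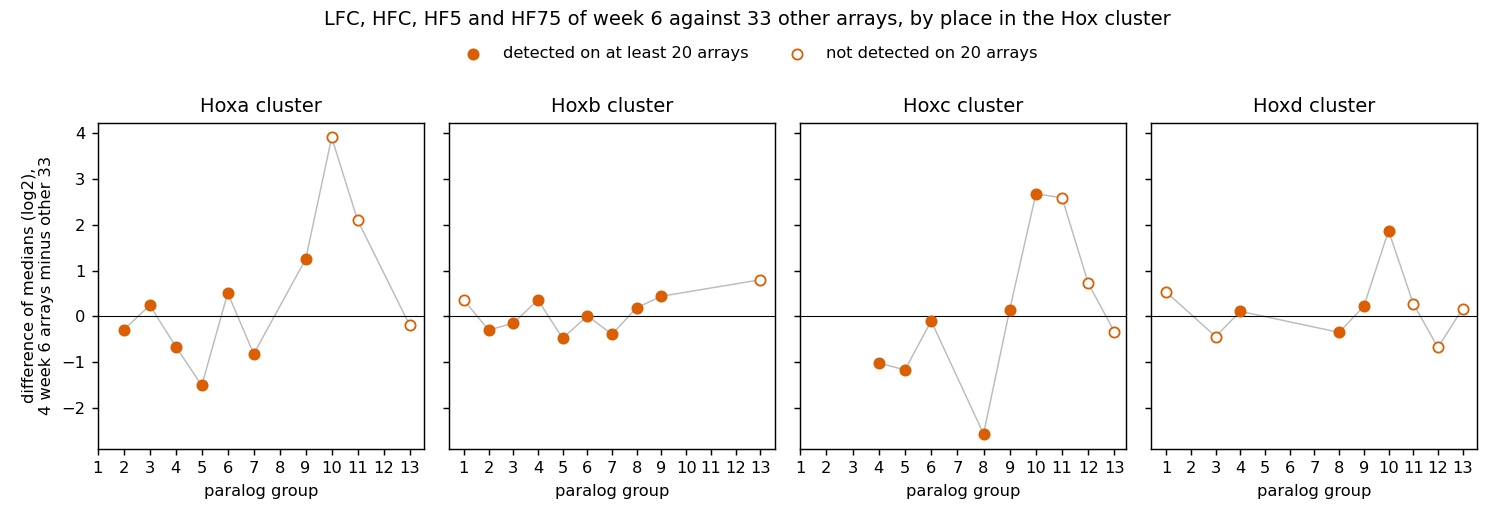
Difference of medians on the log2 scale (vertical axis) between LFC, HFC, HF5 and HF75 of week 6 and the 33 other arrays, by paralog group (horizontal axis) in each Hox cluster, with filled points for detected genes and open points for the rest, and 1 gene not drawn. Hoxa10 (3.91), Hoxc10 (2.68), Hoxc11 (2.59) and Hoxa11 (2.10) lie highest, and Hoxc8 (-2.57) lowest.

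Among the posterior genes, Hoxc10, known as a gene of subcutaneous rather than visceral fat, was -3.00 in LFC, -2.74 in HFC, -2.38 in HF5 and -2.77 in HF75, and -5.23 in HF20 of the same week. On the 33 arrays it ran from -7.97 through a median of -5.43 to -3.16 in HF5 of week 3, and on HFC week 12 it was 1.21. Thus the 4 arrays were higher than all others with a value but HFC week 12, and HF20 of the same week was not. LFC week 3 had no value for Hoxc10. Its neighbour Hoxc11 was -5.03, -6.26, -5.64 and -5.25 in the same order, well above background in 3 of the 4 and in none of the 33 (median -8.04), a difference of at least 3.26-fold against the lowest signals measurable there. HFC week 12, at -3.70 and well above background, was higher for Hoxc11 than all 4, and LFC week 3 had no value. Hoxd10 was -2.08, -1.94, -2.83 and -3.47, against -4.85 in HF20 and a median of -4.32, and 9 of the 33 arrays exceeded the lowest of the 4. Hoxa9 was -1.95, -2.00, -1.36 and -1.56, against a median of -3.00, and here HF20 of week 6, at -1.88, stood with the 4.

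Among the genes of groups 4 to 8, Hoxc8, known to hold back the making of brown fat cells, was -5.87 in LFC, -7.52 in HFC, -7.95 in HF5 and -5.98 in HF75, not well above background on any of the 4, and -3.30 in HF20. It was well above background on 30 of the other 35 arrays (mean -4.23 ± 1.09 over the values present), a level at least 4.21-fold higher. Hoxc5 was likewise not well above background on any of the 4 (-5.99, -6.08, -5.84 and -6.89), with -3.45 in HF20. It was well above background on 26 of the other 35 arrays (mean -4.85 ± 1.11 over the values present). By the difference of means that level was 2.55-fold higher, since all 4 signals exceeded the lowest measurable signal of their arrays. The values overlapped, down to -7.76 in HF5 of week 15. Neither Hoxc8 (-1.82, SE 0.58, adjusted p = 0.127) nor Hoxc5 passed in the test of all 5 week 6 arrays. Hoxc4 was -1.62, -0.33, -0.06 and -0.15 against a median of 0.78, and 0.52 in HF20. For Hoxc4, Hoxc5, Hoxc8, Hoxc10 and Hoxc11, then, HF20 of week 6 lay with the other weeks, and for Hoxa5 and Hoxa9 it lay with the rest of week 6. The difference between HF20 and the other diets at week 6 was not tested. Fewer cells of a type and less RNA per cell cannot be told apart in such tissue samples.

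Genes that mark depots stood apart on the same arrays, and since such genes had been used to single these arrays out, they are described with no test. Tbx15, a marker of subcutaneous fat, was -0.52 in LFC, -0.53 in HFC, -1.46 in HF5 and -0.97 in HF75 of week 6, -8.97 in HF20, and at most -4.71 on the 33 arrays, while LFC week 3 (-1.39) and HFC week 12 (-2.73) were also high. Its median on the 33 was -7.14. Shox2, also named for subcutaneous fat, was -3.77, -4.39, -5.29 and -3.52 against at most -5.67, and En1 was not well above background on the 4. Of the visceral markers, Wt1 was -4.40, -5.38, -7.79 and -7.57 in the same order and at least -1.40 on the 33 arrays, with that lowest value in HF20 of week 6. Upk3b was -7.37, -7.70, -7.92 and -8.24 against at least -4.03, and -0.07 in HF20. Tcf21 was -3.70, -5.10, -5.95 and -8.09 against at least -3.07, and -1.36 in HF20. Nr2f1, well above background on 9 arrays in all, overlapped. Thus 3 of 4 visceral genes lay wholly below and 2 of 3 subcutaneous genes wholly above the 33.

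**Figure D4:**
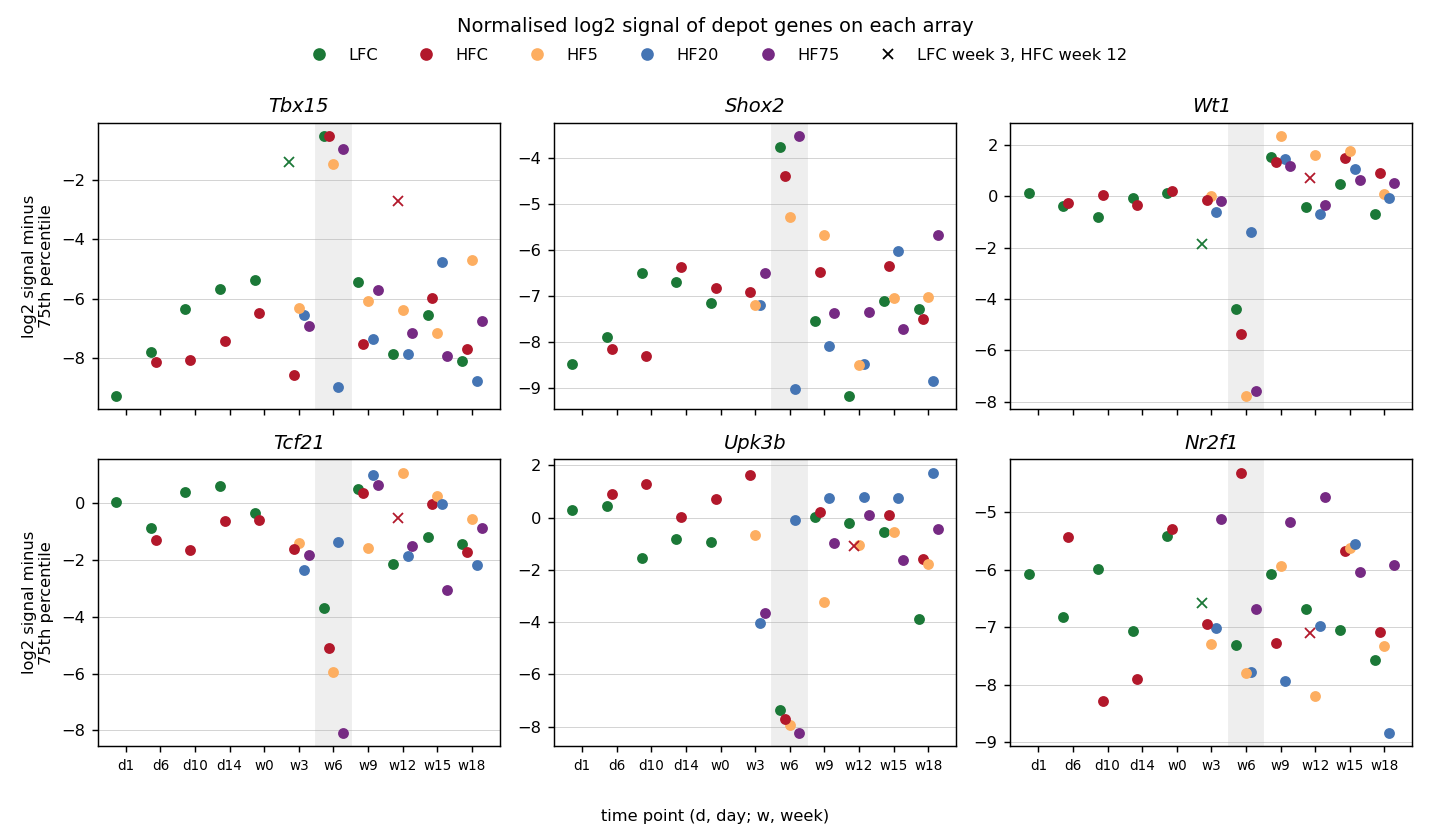
Normalised log2 signal (vertical axis) of 2 subcutaneous (Tbx15, Shox2) and 4 visceral depot genes on every array by time point (horizontal axis), coloured by diet, with week 6 shaded and LFC week 3 and HFC week 12 as crosses. At week 6 HF20 stands with the other weeks for Tbx15 (-8.97) and Wt1 (-1.40), and the other 4 arrays do not.

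Genes of the other tissues that a fat pad could hold were also set beside these values. Of 10 adipocyte markers none was called at week 6 (median -0.82). Their summed level, in multiples of the 75th percentile, was 224 to 384 in the 4 arrays and 462 in HF20 of week 6. It was 175 to 1440 on the 32 remaining arrays, which here and below leave out LFC week 3 and HFC week 12. On those the adipocyte sum was 407 and 160. Single adipocyte genes were much lower in the 4 than the median of the 33, as Plin1 (-3.32), Retn (-3.16), Lep (-2.75) and Adipoq (-1.82), while Fabp4 (0.53) was not, and all 10 overlapped. Of 6 mesothelium markers 5 lay wholly below the 33, among them Wt1 and Upk3b, which are also in the visceral list. The mesothelium sum was 0.207 to 1.07 in the 4 arrays, 8.34 in HF20 of week 6, and 1.14 to 25.5 on the 32 remaining arrays. Skeletal muscle markers summed to 4.04 to 17.8 in the 4, 2.84 in HF20 of week 6 and 0.859 to 24.2 on the 32, and lymphoid markers to 1.77 to 12.4, 8.02 and 0.641 to 7.86, with 0 of 8 called in each list. Of brown fat markers Ucp1 and Cidea were not called, and Lhx8, which passed the filter on dim probes only through the 4 arrays, was -2.27, -2.70, -3.07 and -1.90 there against at most -3.32 on the 33. Of 8 epididymis, 5 testis, 5 skin, 5 progenitor and 2 kidney markers tested none was. Testis markers summed to 97.4 in HF20 of week 6, against 0.199 to 0.504 in the 4 and 0.130 to 58.5 (median 0.775) on the 32. They summed to 4.2 on LFC week 3 and 0.0393 on HFC week 12. What part any of these had in the Hox values was not tested.

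Partners and regulators of Hox genes did not pass at week 6. Of 9 Hox cofactors of the TALE family (Pbx, Meis and Pknox, which bind DNA beside Hox proteins) none was called, with small p in Meis2 (-0.67, SE 0.25, adjusted p = 0.200) and Meis1 (-0.90, SE 0.33, adjusted p = 0.206). Of 20 chromatin regulators of the clusters (Polycomb, trithorax and demethylase genes) none was called, with Ring1 nearest (0.93, SE 0.28, adjusted p = 0.102). Of 8 genes of retinoic acid and Cdx tested none was called, with Aldh1a3, which makes retinoic acid, nearest (-2.07, SE 0.60, adjusted p = 0.0812), and Cdx1, Cdx2 and Cdx4 were too dim to test. The list medians were 0.25, -0.02 and -0.06, beside -0.02 over all probes.

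The high fat diet moved no Hox gene past the threshold. Over 10 time points (20 arrays, time point as a block) 0 of 28 Hox genes passed, and 0% of 29169 probes did by limma, of which 889 had an unadjusted p under 0.05, and by the methods' t-test, run on the same paired values, 928 did and 0 passed after adjustment. The median Hox difference of HFC from LFC was 0.07, beside 0.03 over all probes, with 15 genes higher and 13 lower. The smallest p were those of Hoxd10 (-1.33, SE 0.57, adjusted p = 0.998), Hoxb3 (0.51, SE 0.27, adjusted p = 0.998) and Hoxc5 (0.36, SE 0.20, adjusted p = 0.998). Hoxd10 was -4.56 ± 1.55 (SD, n = 9) in HFC and -3.51 ± 1.5 (n = 10) in LFC, lower in 5 of 9 pairs. Over weeks 3 to 18 alone, 0 of 29 passed beside 0% of probes (725 at an unadjusted p under 0.05), the nearest being Hoxd1 (1.69, SE 0.93, adjusted p = 1), Hoxd10 (-1.15, SE 0.70, adjusted p = 1) and Hoxc4 (0.51, SE 0.38, adjusted p = 1). Leaving out 1 week moved Hoxd1 from 0.59 (without week 9) to 2.51 (without week 18) and Hoxd10 from -1.54 (without week 18) to -0.12 (without week 3). The typical SE of a Hox difference was 0.27 over 10 time points and 0.43 over weeks 3 to 18, and the larger Hoxd10 difference over 10 time points, with its SE of 0.57, was not detectable either with this number of arrays.

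The KAL-1 doses moved none either. In HF5, HF20 and HF75 against HFC and in the mean of the 3 doses against HFC (weeks 3 to 18, time point as a block), 0 of 29 Hox genes and 0% of 31450 probes passed by limma, while 1076, 1523, 472 and 549 probes had an unadjusted p under 0.05. These comparisons share the 6 HFC arrays. The smallest p in HF5 were those of Hoxc5 (-1.09, SE 0.46, adjusted p = 0.954), Hoxb9 (0.90, SE 0.51) and Hoxa2 (0.53, SE 0.33). In HF75 they were those of Hoxd1 (-2.03, SE 0.88, adjusted p = 1), Hoxc5 (-1.05, SE 0.46) and Hoxb3 (0.58, SE 0.34).

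HF20 had the lowest p of the 3 doses, in Hoxd1 (-2.60, SE 0.88, adjusted p = 0.780), Hoxc10 (-2.15, SE 0.95, adjusted p = 0.780) and Hoxc8 (1.30, SE 0.58, adjusted p = 0.780). Hoxd1 was well above background on 1 of 6 HF20 and 2 of 6 HFC arrays, the latter at -0.96 in week 9 and -3.67 in week 6. Without week 6 these differences were -1.94, -2.09 and 0.72, without week 9 Hoxd1 was -1.46, and without week 12 Hoxc10 was -0.75. Averaged over the doses, the smallest p were those of Hoxd1 (-1.89, SE 0.74, adjusted p = 1), Hoxc10 (-1.14, SE 0.77) and Hoxc5 (-0.51, SE 0.39), and Hoxc10 turned to 0.14 without LFC week 3 and HFC week 12.

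Time on the diets gave no Hox gene past the threshold in LFC and HFC together (12 arrays of weeks 3 to 18 against 9 of days 1 to 14 and week 0, diet in the fit). Of 28 Hox genes 0 passed by limma, where 3.62% of 29579 probes did. An unadjusted p under 0.05 was reached by 4 of the 28, where 21.5% of all probes reached it. The Hox median was -0.16, beside -0.03, with 20 genes lower and 8 higher late. Nearest were Hoxc5 (-1.01, SE 0.31, adjusted p = 0.0736), Hoxd3 (-1.33, SE 0.48, adjusted p = 0.118) and Hoxb6 (-0.85, SE 0.34, adjusted p = 0.160). Hoxc5 was -4.17 ± 0.73 (SD, n = 9) early and -5.17 ± 0.61 (n = 10) late, and 10 of 10 late values lay below the early mean of their diet. In LFC its difference was -1.15 (SE 0.42) and in HFC -0.86 (SE 0.48), and with both diets and normexp it turned to 0.24 (adjusted p = 0.773). Hoxd3 turned to 0.39 with normexp as well. Of the 20 chromatin regulators, Cbx7, of the Polycomb group, rose (1.23, SE 0.26, adjusted p = 0.0106) and Men1, of the trithorax side, fell (-0.88, SE 0.22, adjusted p = 0.0305). Of 9 TALE genes and 7 retinoic acid and Cdx genes tested none passed, and of 3 visceral genes tested none passed. Since days and weeks were scanned on different dates, time and scan date cannot be told apart in late against early. Day 14 and week 0, the same time by the count of the liver paper, were scanned on different dates too. Hoxb6 was 1.06 in LFC and 1.64 in HFC at day 14, and -0.05 and -0.02 at week 0. Hoxc5 was -3.54 and -3.18, then -4.90 and -4.33, and Hoxd3 was -5.01 and -4.39, then -5.50 and -5.67. What part scan date had in these values was not tested.

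**Figure D5:**
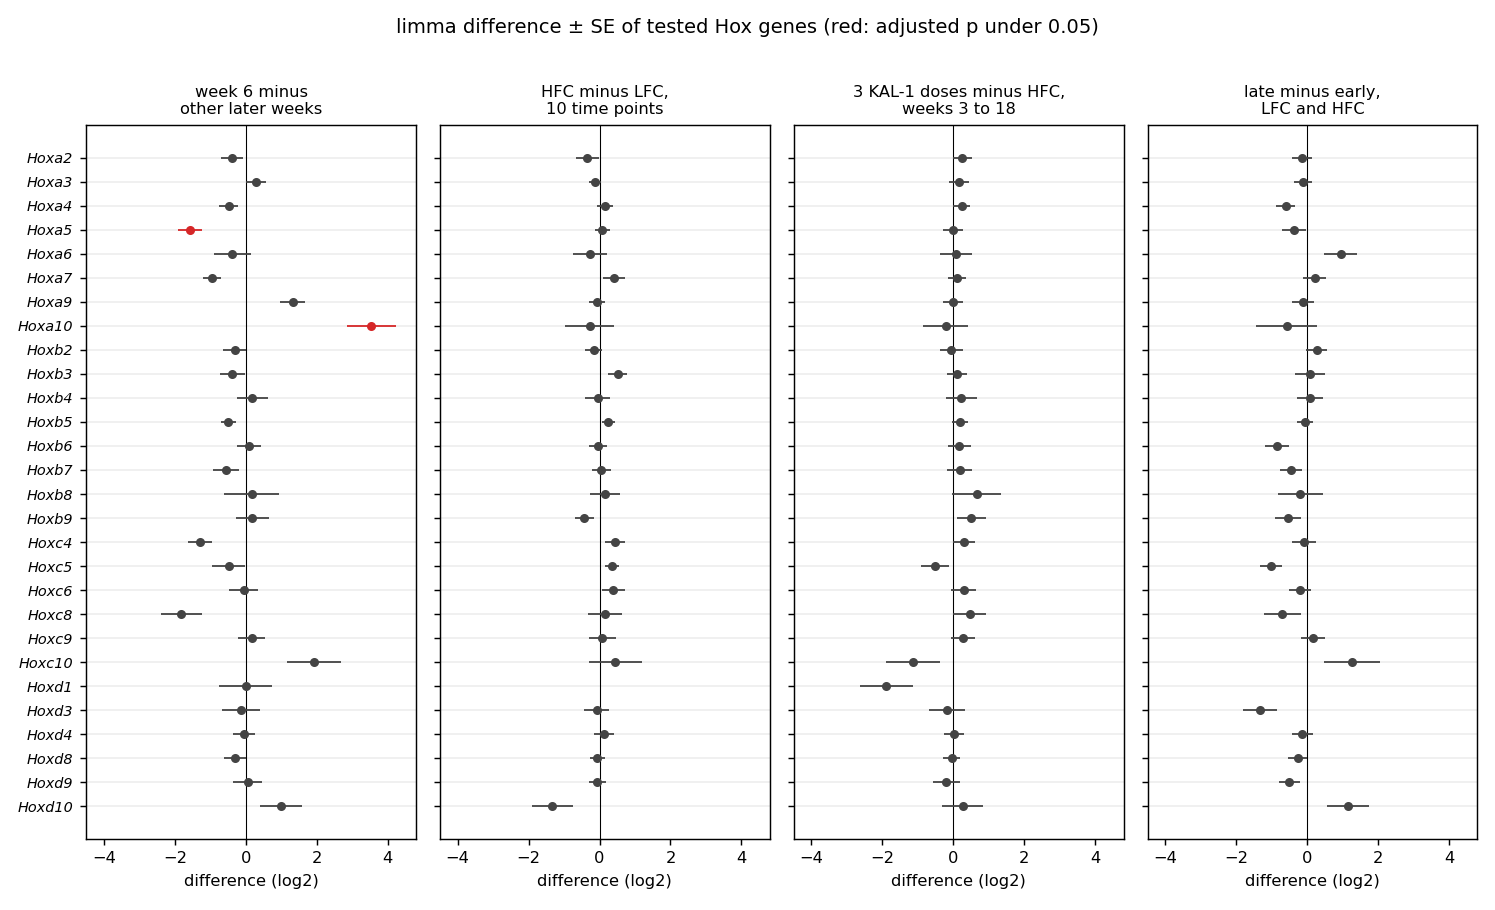
limma difference on the log2 scale (horizontal axis, points with SE bars) of the tested Hox genes (vertical axis, 1 gene not drawn) in 4 comparisons, with genes past the threshold in red. Only week 6 holds red points, Hoxa10 (3.54) and Hoxa5 (-1.58).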

How the data were processed

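RNA of epididymal adipose tissue was hybridised to 39 one-colour arrays. The authors deposited scanner files whose intensity values Feature Extraction had background-subtracted within each array (10.5.1.1 per the file headers, 9.1 per the submitters' processing notes), and a series table of log2 differences, each against LFC at its own time point, which served only as an alternative for diets. Gene names and chromosomes are those of the array files, and accessions matched RefSeq with the same symbol for 39 of 39 Hox genes. The processed signal was log2 transformed, each array's 75th percentile over 43803 spots was subtracted, outlier spots were set missing and the spots of a probe were averaged (40628 probes).

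Differences were tested with limma 3.58.1 in R 4.3.3, two-sided, with Benjamini-Hochberg adjustment over all probes tested and a threshold of 0.05. Probes tested were those well above background on 6 or more of 30 arrays for weeks 3 to 18, 10 of 20 for HFC against LFC and 10 of 21 for late against early. The fits were tested on simulated data. Diets were compared with time point as a block, since the labels pair them by time point. The methods' t-test, made on replicates in the study, was here made on paired differences over time points. A bound ("at least") sets the brighter group's mean against, per dim array, the higher of the probe's signal and the lowest signal well above background.

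Genes were named where past the threshold, and otherwise as the 3 smallest p. Members, gene lists and rules were chosen with earlier results of these data known. The companion lists were Hox cofactors, chromatin regulators, retinoic acid and Cdx, and subcutaneous and visceral depot genes. Marker lists were adipocyte, progenitor, mesothelium, epididymis, testis, skeletal muscle, skin, lymphoid, brown fat and kidney, each gene by its brightest probe. Alternatives changed the background correction, scaling, filter, outlier spots, array weights, slide or scan date, left out arrays or time points, or took the values the authors had tabulated. Figures were drawn with matplotlib 3.10.9 and pandas 2.3.3 under Python 3.11.15. The number of arrays limits the precision. Values of 1 Hox gene and 1 cofactor are not reported here, though both are in the counts.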

Additional observations from a re-analysis of the deposited data

Results flagged for a closer look

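The 5 to 6 arrays of week 6, and of each diet at weeks 3 to 18, were searched for an outlying value. The search covered the 6 Hox genes called at week 6 with or without LFC week 3 and HFC week 12. Of 36 groups in all, 3 were marked. By chance about 1 in 20 independent groups would be marked, but that rate does not apply here. The genes were chosen by their week 6 calls, and the week 6 and diet groups share arrays. Hoxc10 in HF20 of week 6 (-5.23) lay apart from the other 4 arrays of that week, with a gap of 0.784 of the whole range. Hoxc4 in HF5 of week 9 (2.52) lay above the other HF5 arrays with a gap of 0.674 of the range. Hoxa7 in HF75 of week 6 (1.96) lay below the other HF75 arrays with a gap of 0.666 of the range.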

How the results depend on the processing

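For week 6, 445 probes and 2 Hox genes passed, and the counts moved to 51 and 0 with normexp, 244 and 1 with median scaling, 43 and 0 with scan date as a random block, 912 and 6 without LFC week 3 and HFC week 12, and 5749 and 9 with array weights, and keeping outlier spots gave 249 probes. Leaving out 1 week 6 array or 1 other week at a time gave 73 to 669 probes and 0 to 4 Hox genes, with 0 Hox genes without HF75 of week 6, 1 without LFC or without HFC of week 6, and 4 without week 3 or without week 12. Hoxa10, Hoxa5, Hoxc4, Hoxa9, Hoxc10 and Hoxa7 kept their direction at week 6 in every setting run. For late against early, 1071 probes and 0 Hox genes moved to 37 probes with normexp, 572 with median scaling, 148 in LFC alone, 0 in HFC alone, 0 with week 0 alone as early, and 6407 probes and 3 Hox genes with array weights, and leaving out 1 time point gave 284 to 3054 probes and 0 to 2 Hox genes (Hoxc5 and Hoxb6 without week 0, Hoxc5 and Hoxd3 without week 3, Hoxc5 without day 10, Hoxb6 without week 12). For the mean of the KAL-1 doses leaving out 1 week gave 0 to 1 probes, and Hoxc10 there ranged from -1.77 without week 3 to 0.11 without week 12. The count of detected Hox genes wholly above the other arrays in LFC, HFC, HF5 and HF75 of week 6 moved from 0 to 1 without LFC week 3 and HFC week 12. Across all settings the sign turned at least once for 11 of 29 Hox genes at week 6, 21 of 28 in HFC against LFC over 10 time points, 23 of 29 over weeks 3 to 18, 17 to 20 of 29 in the KAL-1 comparisons and 19 of 28 in late against early (Hoxa10 from -0.58 to 1.17 with week 0 alone as early), none of them called. Among the genes named above for their p, 7 such cases arose: with normexp Hoxb3 (-0.25) and Hoxc5 (-0.10) in HFC against LFC and Hoxc5 (0.24) and Hoxd3 (0.39) in late against early, Hoxc10 in the mean of the doses without LFC week 3 and HFC week 12 (0.14) or without week 12 (0.11), and Hoxb6 with week 0 alone as early (0.32). Without time point as a replicate block, 0 Hox genes passed in the diet comparisons, and Hoxd10 in HFC against LFC was -1.05. The cause of these shifts was not tested. Hoxa10 was not well above background on 19 of 25 other later arrays. Against all 35 other arrays the gap of Hoxa10 was 0.99 and of Hoxc10 1.01 with normexp.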
